A study of Homo sapiens with 6 samples.

Results

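The nuclear-encoded subunits of respiratory complexes II to V, together with cytochrome c, were examined in long-read cDNA counts from Calu-6, a cell line established from human lung cancer. The members were the genes of the count table named SDHA, SDHB, SDHC, SDHD, CYC1 or CYCS, or with a symbol starting with UQCR, COX4, COX5, COX6, COX7, COX8 or ATP5, leaving out hyphenated names and retrocopies (symbols ending in P and digits). They numbered 45 of the 10072 genes in the table, with 235 of its 21472 transcript models and 131070 of its 6784575 counts, or 1.93%. By complex there were 4 genes of complex II, 10 of complex III, 11 of complex IV, 19 of complex V and the gene of cytochrome c.

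The electron transport chain passes electrons from NADH and succinate to oxygen and uses the energy to pump protons out of the mitochondrial matrix. Complex II (succinate dehydrogenase) feeds electrons from the citric acid cycle into ubiquinone, complex III hands them to cytochrome c, and complex IV (cytochrome c oxidase) passes them to oxygen, after which complex V (ATP synthase) lets the protons back in to make ATP. Complex II is built from nuclear genes alone, whereas the others combine nuclear subunits, imported from the cytosol, with subunits made inside the organelle from the mitochondrial genome. Cytochrome c has another role outside mitochondria, where its release into the cytosol starts caspase activation in apoptosis.

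The study asked what changed in the transcriptome when the Delta 2-4 splice variant of TERT, the catalytic subunit of telomerase, was targeted. All 6 libraries came from Calu-6 cells transfected with RNAiMAX and an siRNA at 10 nM for 48 h. In 3 libraries this was a non-silencing siRNA (siControl), and in the other 3 it was an siRNA to the junction of TERT exons 1 and 5 (siDelta2-4). By the methods of the study the cells were a stable line carrying an empty Flag-V5 vector, which the word Empty in the count columns matches, while the labels give the genotype as WT. Both groups share this background.

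Libraries are numbered as in the count columns, and the labels gave no replicate number that could be matched to those numbers. The study calls the libraries biological replicates, but the labels do not say whether they came from separate cultures, so the p-values measure only the spread between these samples. Total counts were 1106413, 1077555 and 1037468 in siControl and 1070009, 1183889 and 1309241 in siDelta2-4. TERT had no rows in the table, so the knockdown was not checked here. Among markers, KRT8, KRT18 and VIM were counted in every library, and EPCAM had 1 to 3 counts per library. KRT19 and FN1 had 0 or 1 count per library, and CDH1, CDH2, NKX2-1, SFTPB and SFTPC had no rows. Of the markers of other cell types, CD68 had 1 to 3 counts per library, and PTPRC, CD3E, PECAM1, COL1A1 and COL1A2 had no rows. In cell populations, fewer cells with a transcript and less of it per cell cannot be told apart.

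Most of the respiratory subunit genes differed little between siControl and siDelta2-4 cells, and 6 passed the test. CYCS, which encodes cytochrome c, and ATP5PB, a peripheral stalk subunit of ATP synthase, rose in siDelta2-4, while ATP5MC1 and ATP5F1E of ATP synthase, COX6A1 of complex IV and UQCR11 of complex III fell. Changes were tested with edgeR's quasi-likelihood test on counts summed per gene, and a gene was called at a Benjamini-Hochberg adjusted p under 0.1 over all 3888 genes tested. Of the 45 members, 40 passed the filter on low counts, and the 6 called genes are 15.0% of these, against 13.0% of all tested genes. The 2 called higher are 5.0% of the tested members, against 7.00% of all tested genes, and the 4 called lower are 10.0%, against 5.97%. These shares lie near the background, so the number of calls is no result about the complexes.

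The 5 members that did not pass the filter held 120 counts together over the 6 libraries. They were SDHA with 55 counts, UQCRFS1 with 44, CYC1 with 16, ATP5F1D with 4 and ATP5MGL with 1. Among them are catalytic subunits, namely the flavoprotein of complex II (SDHA), the Rieske iron-sulfur protein (UQCRFS1) and cytochrome c1 (CYC1), so the catalytic core of complex III outside the mitochondrial genome could not be tested at this depth.

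The 34 tested members that were not called had log2 fold changes (siDelta2-4 over siControl) between -0.54 and 0.22, and 30 of them lay within 0.2 of 0. The standard error (SE) of a member's log2 fold change ran from 0.08 to 0.36, with a median of 0.10. Values below 0 were more frequent than above, with 26 of 40 members (65.0%) below 0, against 46.1% of all tested genes. The median was -0.04 over the members and 0.03 over all tested genes. The number of members below 0 moved with the setting. On library totals alone (13.2% of all tested genes called), 16 of the 40 members lay below 0. The medians were then 0.02 over the members and 0.09 over all tested genes, so the gap between them remained. With the trend on transcript length removed (12.1% called), 21 members lay below 0. The medians then lay close together, at -0.0096 over the members and -0.0063 over all tested genes.

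**Figure D1:**
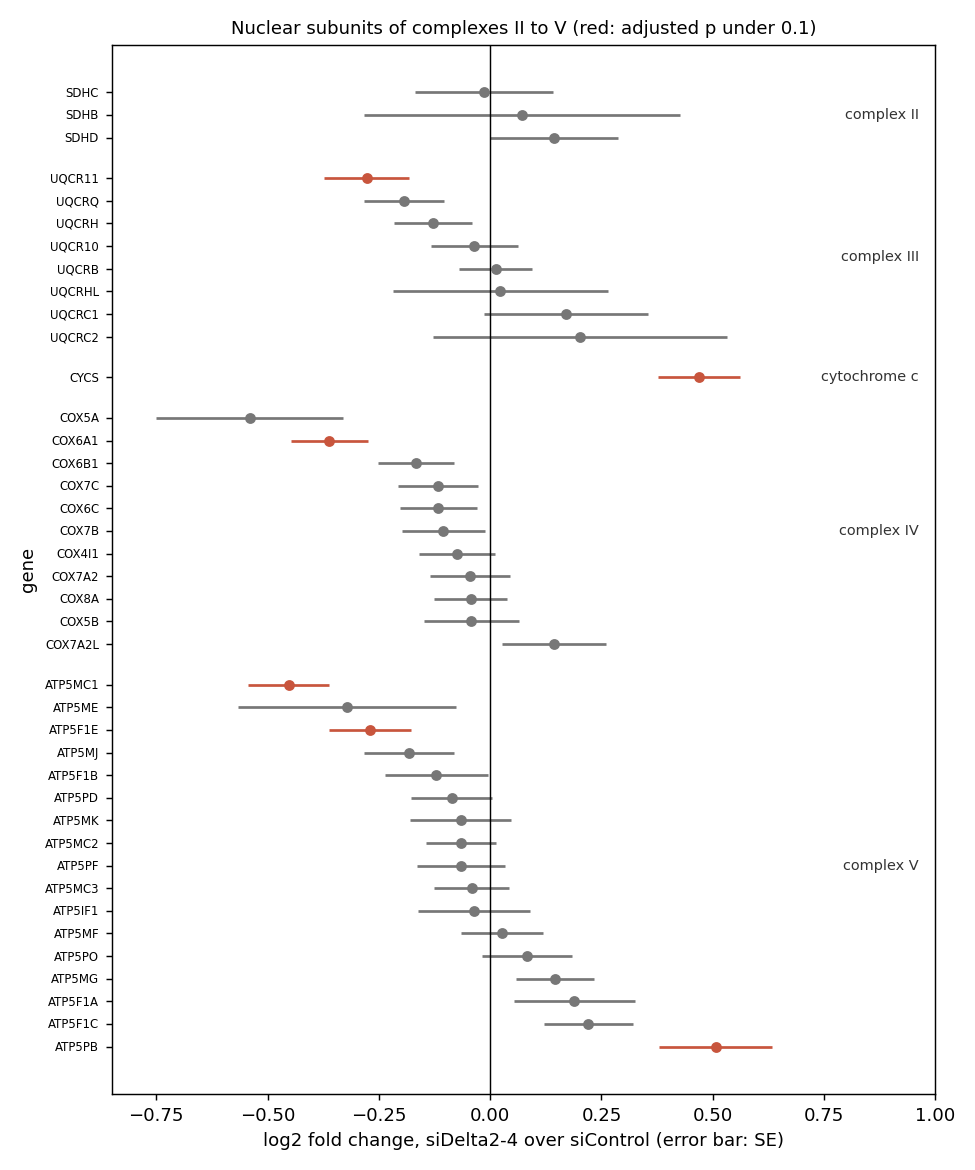
Log2 fold change of siDelta2-4 over siControl (x axis) for the 40 tested subunit genes (y axis), grouped by complex, with points for the estimates, bars for their SE and red for an adjusted p under 0.1. The 6 called genes lie at 0.47 (CYCS), 0.51 (ATP5PB), -0.45 (ATP5MC1), -0.36 (COX6A1), -0.27 (ATP5F1E) and -0.28 (UQCR11), and in complex IV 10 of 11 points lie below 0 on this scaling (7 on library totals alone).

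Normalised read counts (CPM, scaled to TMM-adjusted library totals) separated the groups without overlap in 8 of the 40 tested members, or 20.0%, against 26.0% of all tested genes. In 3 members (7.5%, against 14.1%) every siDelta2-4 library was above every siControl library, and in 5 (12.5%, against 11.9%) every one was below. These 8 were the 6 called genes with ATP5F1C above and COX5A below.

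CYCS (ENSG00000172115.9; GRCh38 chromosome 7, 25118656 to 25125260, minus strand) encodes the somatic cytochrome c that carries electrons from complex III to complex IV. It measured 414, 385 and 431 CPM in siControl libraries 1 to 3 and 583, 604 and 517 CPM in siDelta2-4 libraries 1 to 3. All 3 siDelta2-4 libraries were above all siControl libraries. The mean was 410.3 ± 23.0 CPM in siControl and 568 ± 45.2 CPM in siDelta2-4 (SD over n = 3 libraries each), a 1.38-fold rise (log2 fold change 0.47 ± 0.09 SE, edgeR adjusted p = 0.00185). CYCS was called under all 15 alternative settings, with log2 fold changes from 0.30 to 0.54.

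ATP5PB (ENSG00000116459.11; chromosome 1, 111448864 to 111462773, plus strand) encodes subunit b, which forms much of the peripheral stalk that keeps the catalytic head of ATP synthase from turning with the rotor. It measured 105, 135 and 150 CPM in the siControl libraries and 189, 198 and 169 CPM in the siDelta2-4 libraries. The groups did not overlap, but siControl library 1 was well below the other controls. The rise was 1.42-fold (log2 fold change 0.51 ± 0.13 SE, edgeR adjusted p = 0.0124). ATP5PB was called in 13 of 15 alternatives and lost its call without siControl library 1 (log2 fold change 0.36) and without siDelta2-4 library 2 (0.45), with an adjusted p of up to 0.11.

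ATP5MC1 (ENSG00000159199.14; chromosome 17, 48892765 to 48895871, plus strand) is among the genes for subunit c, the protein whose ring turns in the membrane as protons pass. It measured 559, 559 and 507 CPM in the siControl libraries and 406, 415 and 366 CPM in the siDelta2-4 libraries. Every siDelta2-4 library was below every siControl library. The level was 26.9% lower in siDelta2-4 (log2 fold change -0.45 ± 0.09 SE, edgeR adjusted p = 0.00228), and the gene was called under all 15 alternatives.

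COX6A1 (ENSG00000111775.3; chromosome 12, 120438090 to 120440737, plus strand) encodes the widely expressed form of subunit 6A, a small nuclear subunit on the outside of the cytochrome c oxidase core. It measured 1284, 1316 and 1115 CPM in the siControl libraries and 1014, 870 and 1008 CPM in the siDelta2-4 libraries. The groups did not overlap, and siDelta2-4 library 2 was the lowest of the 6. The level was 22.1% lower in siDelta2-4 (log2 fold change -0.36 ± 0.09 SE, edgeR adjusted p = 0.00965), and the call was kept in 14 of 15 alternatives, being lost without siDelta2-4 library 2 (adjusted p = 0.112).

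Reads of COX6A1 could be divided with a retrocopy, COX6A1P2 (chromosome 6, 37044860 to 37045189), which held 1304 counts, or 17.8% of the count of COX6A1. Its counts were 250, 232 and 218 in the siControl libraries and 201, 207 and 196 in the siDelta2-4 libraries, which were larger in total. Its own log2 fold change was -0.42 ± 0.11 (SE, edgeR adjusted p = 0.0226), near that of COX6A1. Of 15 retrocopies of members in the table, 12 had under 30 counts over all libraries, and the other tested ones, ATP5MFP2 and ATP5F1EP2, held 85 and 71 counts and were not called.

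UQCR11 (ENSG00000127540.12; chromosome 19, 1597169 to 1605473, minus strand) encodes a small supernumerary subunit of complex III. It measured 489, 439 and 402 CPM in the siControl libraries and 375, 377 and 347 CPM in the siDelta2-4 libraries. The groups did not overlap. The level was 17.5% lower in siDelta2-4 (log2 fold change -0.28 ± 0.10 SE, edgeR adjusted p = 0.0726), and the call was kept in 8 of 15 alternatives and in 1 of 6 leave-outs of a library.

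ATP5F1E (ENSG00000124172.10; chromosome 20, 59025475 to 59032345, minus strand) encodes the epsilon subunit of the central stalk, which turns with the c ring. It measured 1173, 1040 and 870 CPM in the siControl libraries and 860, 857 and 839 CPM in the siDelta2-4 libraries. The groups did not overlap, though siControl library 3 lay close to the siDelta2-4 libraries. The level was 17.1% lower in siDelta2-4 (log2 fold change -0.27 ± 0.09 SE, edgeR adjusted p = 0.0681), and this call too was kept in 8 of 15 alternatives and in 1 of 6 leave-outs. Without siControl library 1 the log2 fold change was -0.19.

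**Figure D2:**
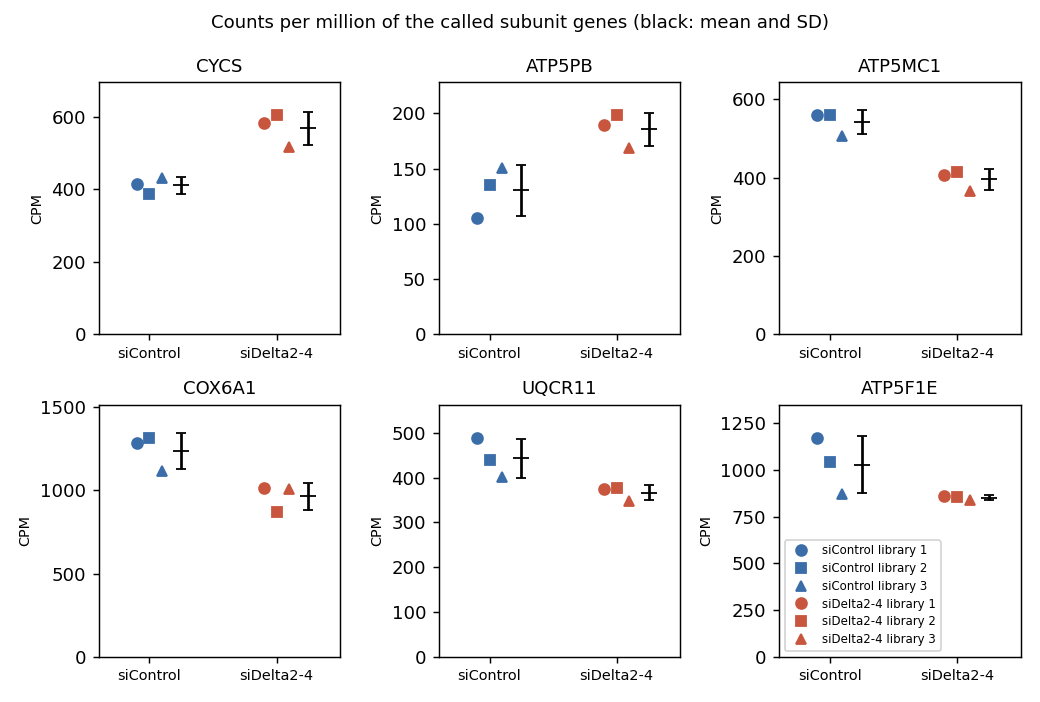
CPM on TMM-scaled totals (y axes, from 0) in the siControl and siDelta2-4 libraries for the 6 called subunit genes, with 1 marker per library and black bars for the mean and SD. CYCS and ATP5PB lie higher in all 3 siDelta2-4 libraries, the other genes lie lower, and for ATP5F1E siControl library 3 (870 CPM) is only just above the siDelta2-4 libraries.

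Of the called genes, ATP5F1E shares its locus with TUBB1, an annotated beta-tubulin gene on the opposite strand, and the 2 genes had nearly equal counts (6262 for ATP5F1E and 6181 for TUBB1, a ratio of 0.987). TUBB1 was itself called lower (log2 fold change -0.29, edgeR adjusted p = 0.0481). In the counts 1061 models, with 7.98% of all counts, were classed as antisense, so models carried a strand. The sources used here do not say how the strand of a read was set, so reads of ATP5F1E and of TUBB1 cannot be told apart. The same held for members that were not called, with ratios of 0.906 for VPS13B beside COX6C, 0.950 for CPSF4 beside ATP5MF, 0.939 for ENSG00000254873 beside ATP5MG, 0.976 for TAF5 beside ATP5MK and 0.920 for JAM2 beside ATP5PF. In all, 11 members had an annotated opposite-strand neighbour in the table, and for 7 of them the neighbour held at least 0.1 times the member's count. The called gene ATP5PB had WDR77 opposite, with 46 counts or 0.043 times its own. Unannotated antisense loci were not searched for any member. At ATP5PD the neighbour KCTD2 held 2.15 times the count of the member and was called higher (log2 fold change 0.34, edgeR adjusted p = 0.00745), while ATP5PD had a log2 fold change of -0.09 ± 0.09.

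The promoters of the 3 called genes with the smallest adjusted p are shown, namely CYCS, which rose, and ATP5MC1 and COX6A1, which fell. Each is the 250 bases before the RefSeq start in GRCh38.p14, printed 5′ to 3′ on the strand of the gene. They are chr7:25125261-25125510 (minus strand) for CYCS, chr17:48892537-48892786 (plus) for ATP5MC1 and chr12:120437863-120438112 (plus) for COX6A1. Capitals mark matches, on either strand, to the cores of the NRF-1 motif (GCGCATG), the ETS motif (CCGGAAG) and the YY1 motif (AAGATGG), sequences of factors known for their part in nuclear genes of respiration.
CYCS: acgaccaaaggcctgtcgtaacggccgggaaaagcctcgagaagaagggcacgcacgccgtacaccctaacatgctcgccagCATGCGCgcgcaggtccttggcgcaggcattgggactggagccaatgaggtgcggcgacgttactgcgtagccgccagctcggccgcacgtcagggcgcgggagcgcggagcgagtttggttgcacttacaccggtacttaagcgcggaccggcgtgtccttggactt
ATP5MC1: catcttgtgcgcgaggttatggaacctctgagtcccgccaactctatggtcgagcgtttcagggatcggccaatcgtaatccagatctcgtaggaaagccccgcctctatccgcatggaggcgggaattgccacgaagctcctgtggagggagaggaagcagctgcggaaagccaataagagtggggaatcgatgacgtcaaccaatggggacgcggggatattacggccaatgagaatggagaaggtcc
COX6A1: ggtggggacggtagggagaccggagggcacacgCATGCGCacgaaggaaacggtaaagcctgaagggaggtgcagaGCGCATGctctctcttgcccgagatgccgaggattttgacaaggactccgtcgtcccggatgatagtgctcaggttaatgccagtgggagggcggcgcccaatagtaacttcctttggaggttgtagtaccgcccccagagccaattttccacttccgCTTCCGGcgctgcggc

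The CYCS promoter held 1 match to the NRF-1 core, starting 168 bases before the start. The COX6A1 promoter held 2 NRF-1 matches, at 217 and 174 bases before the start, and an ETS match at 16 bases, while none of these letters occurred in the ATP5MC1 window. A match is a description of the sequence and not a bound site. Of the 45 members, 35 had an entry in the RefSeq promoter table, whose windows hold 300 bases, 50 of them after the start. Over those windows the NRF-1 core occurred in 9 of the 35 members (25.7%), against 10.8% of the 1739 tested genes with an entry and 5.30% of all 27305 genes with one. The ETS core occurred in 16 members (45.7%, against 30.2% and 12.2%) and the YY1 core in 9 (25.7%, against 12.9% and 7.11%). Among the 6 called genes, the NRF-1 core occurred in CYCS (higher) and COX6A1 (lower), the ETS core in COX6A1 and UQCR11 and the YY1 core in ATP5PB.

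By complex, the share of all library counts was compared over the summed members, as a description with no test. Only cytochrome c had shares that did not overlap between the groups. Its share was 0.0397% ± 0.00323 in siControl and 0.0575% ± 0.00568 in siDelta2-4 (SD over n = 3 libraries each), a ratio of 1.45. The members together took 2.01%, 1.95% and 1.86% of the siControl libraries and 1.96%, 1.94% and 1.88% of the siDelta2-4 libraries, so the whole set overlapped between groups.

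**Figure D3:**
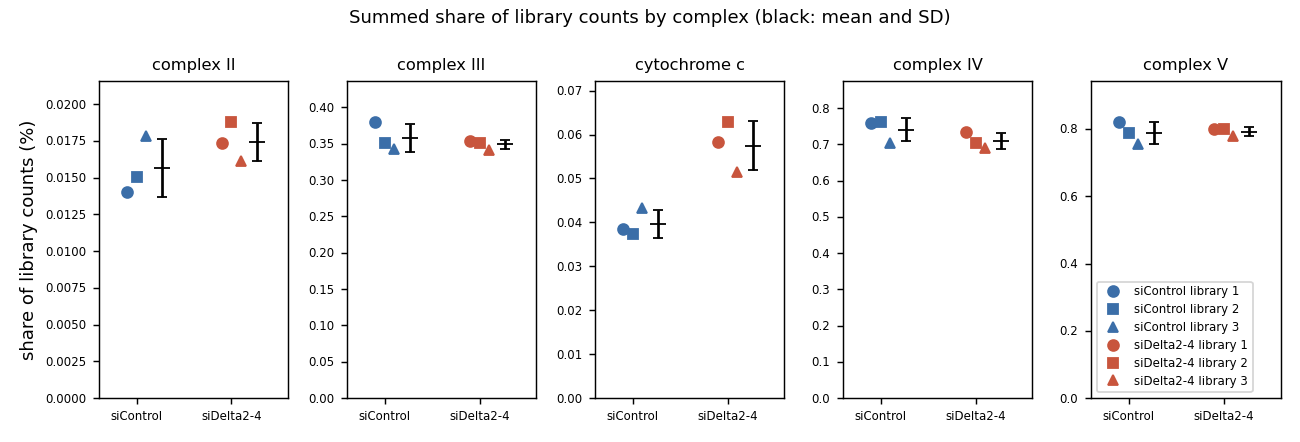
Share of library counts in percent (y axes, each from 0 and on its own scale) taken by the summed nuclear subunits of each complex, with 1 marker per library and black bars for the mean and SD of the 3 libraries of a group. Cytochrome c lies higher in all 3 siDelta2-4 libraries (0.0575% against 0.0397% on average), and the groups overlap for complexes II, III, IV and V.

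Complex II was the least counted, at 0.0156% ± 0.00198 of counts with siControl and 0.0174% ± 0.00132 with siDelta2-4 (SD over n = 3 libraries each), and these ranges overlapped. Per gene, its mean level was 41.7 CPM, against 358 for complex III, 489 for cytochrome c, 668 for complex IV and 421 for complex V. SDHD, a membrane anchor subunit that helps to bind ubiquinone, was both its most counted gene and the one with the largest tested change. It measured 71.2, 72.9 and 84.3 CPM in siControl and 83.3, 87.8 and 81.3 CPM in siDelta2-4. These values overlapped, and the change (0.14 ± 0.14 SE on the log2 scale, edgeR adjusted p = 0.589) was not called. The other anchor gene, SDHC, had a log2 fold change of -0.01 ± 0.16, and the iron-sulfur subunit gene SDHB, with 84 counts in all, had 0.07 ± 0.36, so a change of moderate size in SDHB was not detectable at this depth.

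Nuclear genes of complex III held 0.358% ± 0.0191 of counts with siControl and 0.349% ± 0.00655 with siDelta2-4 (SD over n = 3 libraries each). Of 8 tested genes, 4 had log2 fold changes above 0 and 4 below, with a median of -0.01 (0.06 on library totals alone), and UQCR11 alone was called. UQCRB, a supernumerary subunit next to the ubiquinone site and the most counted gene of the complex, measured 1022, 910 and 913 CPM in siControl and 959, 918 and 992 CPM in siDelta2-4. The groups overlapped (log2 fold change 0.01 ± 0.08), and the sign of this value changed under several alternatives. The supernumerary subunits UQCRQ and UQCR10 had log2 fold changes of -0.19 ± 0.09 and -0.04 ± 0.10, and UQCRH, the hinge protein at the docking site of cytochrome c, had -0.13 ± 0.09. The core protein genes UQCRC1 and UQCRC2 had 0.17 ± 0.19 and 0.20 ± 0.33, on 414 and 119 counts.

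Of the 11 tested members of complex IV, 10 had log2 fold changes below 0 (7 on library totals alone, and 7 with the length trend removed). The median was -0.11 (-0.03 and -0.02 under those settings), and COX7A2L, which joins complexes III and IV into supercomplexes, was the exception at 0.14 ± 0.12. COX6A1 alone was called. The summed share was 0.741% ± 0.0328 in siControl and 0.709% ± 0.0217 in siDelta2-4 (SD over n = 3 libraries each), and the groups overlapped. As a part of the members' own counts, complex IV took 37.8%, 39.0% and 37.8% in the siControl libraries and 37.4%, 36.4% and 36.8% in the siDelta2-4 libraries. On this measure, which is a description with no test, the groups did not overlap (38.2% ± 0.71 and 36.8% ± 0.504, SD). It leaves out NDUFA4, a subunit of complex IV outside the name rule, with 9226 counts and a log2 fold change of 0.06 ± 0.09 (SE). The parts make up a fixed whole, so a larger part for cytochrome c lowers the others. The part of cytochrome c was 2.05% in siControl and 2.98% in siDelta2-4 on average. Whether the part of complex IV was lower apart from this rise was not tested. Nor was it tested whether the groups still lay apart with cytochrome c left out or NDUFA4 counted. The lack of overlap is given only for the members as defined here. COX8A, a small membrane subunit and the most counted of the members in this complex, measured 1283, 1182 and 1096 CPM in siControl and 1173, 1114 and 1167 CPM in siDelta2-4. These values overlapped, and the log2 fold change was -0.04 ± 0.08, with a value above 0 on library totals alone (0.03) and with the length trend removed (0.07).

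COX5A, a matrix-side subunit of complex IV, had the largest absolute log2 fold change of the uncalled members. It measured 33.1, 45.1 and 44.1 CPM in siControl and 25.3, 32.5 and 26.1 CPM in siDelta2-4. Every siDelta2-4 library was below every siControl library, but siControl library 1 and siDelta2-4 library 2 differed by little. The log2 fold change was -0.54 ± 0.21 (SE, edgeR adjusted p = 0.112) on 228 counts in all, and the gene was called in 5 of 15 alternatives. The other subunits, COX4I1, COX5B, COX6B1, COX6C, COX7A2, COX7B and COX7C, had log2 fold changes between -0.17 (COX6B1) and -0.04 (COX5B).

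Complex V held 0.787% ± 0.0325 of counts with siControl and 0.792% ± 0.0121 with siDelta2-4 (SD over n = 3 libraries each), which overlapped, and the difference turned below 0 on TMM-scaled totals. Its 17 tested genes had 6 log2 fold changes above 0 and 11 below with a median of -0.07, against 6 below with a median of 0.0073 on library totals alone and 7 below with 0.02 with the length trend removed. In the catalytic head, ATP5F1A (subunit alpha) had 0.19 ± 0.14 and ATP5F1B (subunit beta, which carries the catalytic sites) had -0.12 ± 0.11. In the central stalk, ATP5F1C (subunit gamma) measured 283, 322 and 348 CPM in siControl and 388, 351 and 372 CPM in siDelta2-4. These did not overlap, but the gene was not called (log2 fold change 0.22 ± 0.10, edgeR adjusted p = 0.175), whereas ATP5F1E of the same stalk fell.

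In the peripheral stalk, ATP5PB rose and the other 3 genes were not called. ATP5PD (subunit d) had a log2 fold change of -0.09 ± 0.09, ATP5PF (factor 6) had -0.07 ± 0.10 and ATP5PO (the subunit that joins the stalk to the head and confers oligomycin sensitivity) had 0.08 ± 0.10. Whether ATP5PB differed from them was not tested. Among the small membrane subunits, ATP5ME had -0.32 ± 0.24 on 210 counts, ATP5MJ -0.18 ± 0.10, ATP5MK -0.07 ± 0.11, ATP5MF 0.03 ± 0.09 and ATP5MG 0.15 ± 0.09. ATP5IF1, the inhibitor that blocks ATP hydrolysis by the reversed enzyme, had -0.04 ± 0.13.

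Subunit c is made from 3 genes, ATP5MC1, ATP5MC2 and ATP5MC3, whose products differ in the import peptide and give the same mature protein. ATP5MC1 took 17.3%, 18.3% and 17.9% of the subunit c counts in the siControl libraries and 13.8%, 15.2% and 13.4% in the siDelta2-4 libraries. The groups did not overlap, at 17.8% ± 0.512 and 14.1% ± 0.922 (SD over n = 3 libraries each). ATP5MC2, the most counted gene of complex V, took 43.4% ± 0.204 and 45.0% ± 0.812, and ATP5MC3 took 38.8% ± 0.618 and 40.9% ± 1.41. In level, ATP5MC2 measured 1400, 1328 and 1224 CPM in siControl and 1297, 1242 and 1238 CPM in siDelta2-4. Neither ATP5MC2 (log2 fold change -0.07 ± 0.08) nor ATP5MC3 (-0.04 ± 0.08) was called. The difference between the paralogs was not tested, and because the shares sum to 100%, a lower share of ATP5MC1 raises the others.

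**Figure D4:**
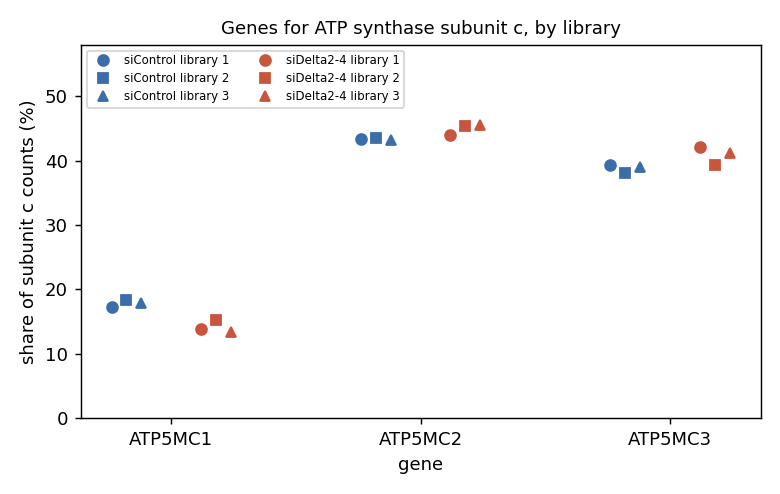
Share of the summed subunit c counts (y axis, percent) taken by ATP5MC1, ATP5MC2 and ATP5MC3 in each library, with siControl in blue and siDelta2-4 in red. ATP5MC1 lies at 17.3% to 18.3% in siControl and at 13.4% to 15.2% in siDelta2-4, and the other genes take correspondingly more.

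Complex IV subunits with tissue-restricted forms were counted in their widely expressed form. COX4I2, COX6A2, COX6B2, COX7A1, COX7B2 and COX8C had no rows in the table. COX7A2L made up 19.0% ± 2.30 of the COX7A family counts in siControl and 20.9% ± 1.92 in siDelta2-4 (SD over n = 3 libraries each), and UQCRHL, a near copy of UQCRH, made up 2.57% ± 0.549 and 2.85% ± 0.39 of the UQCRH counts. Both pairs of ranges overlapped, and reads of UQCRH and UQCRHL could be divided between the 2 genes.

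The number of calls depended on which libraries were fitted. With the DESeq2 Wald test the same 6 members were called, with 6.53% of all tested genes, and likewise with no filter on low counts (4.13%). With a block on the column number 4 members were called (7.69%), without UQCR11 and ATP5F1E. Without siControl library 1 there were 4 (7.27%), without siControl library 2 there were 4 (5.52%), without siDelta2-4 library 1 there were 4 (7.54%) and without siDelta2-4 library 3 there were 4 (6.99%). Without siControl library 3, 3 members were called higher and 11 lower, with 25.4% of all tested genes called, and the added genes were ATP5F1C above and ATP5MJ, COX6B1, COX6C, COX7B, COX7C, UQCRH and UQCRQ below. Without siDelta2-4 library 2, CYCS and ATP5MC1 alone were called, with 4.85% of all tested genes called. siControl library 3 gave the lowest of the siControl CPM values for 24 of the 40 tested members (60.0%), against 37.0% of all tested genes, and siControl library 1 gave the highest for 25 (62.5%), against 35.7%. The cause of this difference between control libraries was not tested.

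**Figure D5:**
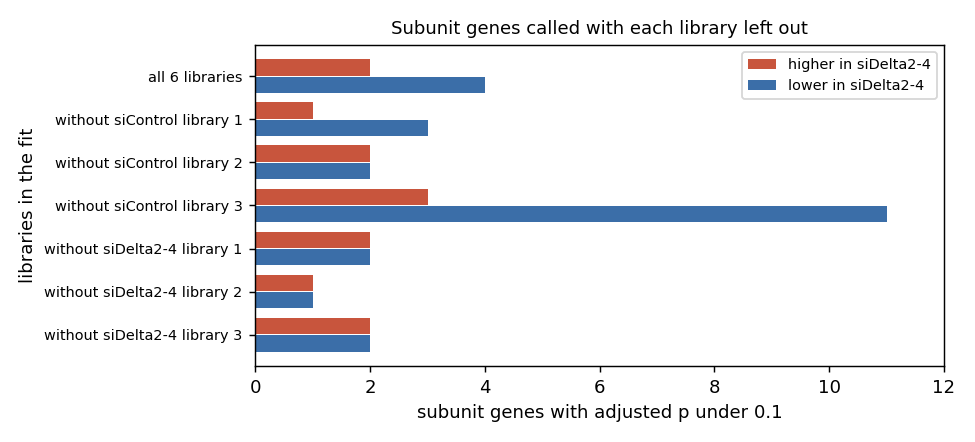
Number of subunit genes called higher (red) or lower (blue) in siDelta2-4 at an adjusted p under 0.1 (x axis), with all 6 libraries and with each library left out in turn (y axis). The counts are 2 higher and 4 lower with all libraries, 3 and 11 without siControl library 3, and 1 and 1 without siDelta2-4 library 2.

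At the level of transcript models, the leading models of CYCS and ATP5PB rose and those of ATP5MC1 and COX6A1 fell. Of the 235 models, 99 passed the filter and 5 (5.05%) were called, against 6.91% of all tested models. ATP5PB-202 and CYCS-201 were higher, with log2 fold changes of 0.58 ± 0.13 and 0.51 ± 0.09 (SE, edgeR adjusted p = 0.0106 and 0.00156). COX6A1-201 and ATP5MC1-201 were lower, at -0.33 ± 0.08 and -0.46 ± 0.10 (edgeR adjusted p = 0.0121 and 0.00479). Each of these was the most counted model of its gene, with 84.0% of the counts of ATP5PB, 88.5% of CYCS, 99.8% of COX6A1 and 67.4% of ATP5MC1. The fifth was an unannotated model of ATP5MJ with 4.39% of the gene's counts, at -1.11 ± 0.34 (edgeR adjusted p = 0.0567) and with 38, 15 and 18 siControl counts against 10, 13 and 14 siDelta2-4 counts.

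The split of reads over the models of a gene was tested in 23 members with the gene-level test of diffSpliceDGE in edgeR, and 0 were called, against 0.618% of the 1132 genes tested (7 genes). At an unadjusted p under 0.05 there was 1 member, UQCR10, with an adjusted p of 0.401, and 109 genes in all. Models that matched an annotated transcript held 91.2% of the members' counts, against 59.5% of the counts of annotated genes. Exceptions were SDHD, where 90.0% of counts fell on an unannotated model of known splice sites in a new combination (1392 bases), and ATP5MJ, where the leading model used an unannotated splice site and held 41.6% of the counts (609 bases).

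Deposited lengths are those of the models and not of the reads, so that ATP5F1E-201 is listed at 3610 bases and UQCRB-201 at 8459. The median length was 927 bases over the tested members and 1143 bases over all tested genes. Log2 fold change and length went together across genes, which share libraries and are not replicates, with a Spearman rho of 0.36 over the 40 members and 0.33 over all tested genes. With a trend on length removed in each library, CYCS kept a log2 fold change of 0.30 (edgeR adjusted p = 0.0298), ATP5PB 0.33 (0.0923), ATP5MC1 -0.35 (0.0126) and COX6A1 -0.25 (0.0282). UQCR11 then had -0.45 (0.0179) and ATP5F1E -0.46 (0.00951), and COX5A, COX7B and UQCRQ were called lower as well.

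Among subunits of the same complexes encoded by the mitochondrial genome, 4 of 5 tested were called higher and 0 lower, against 7.00% and 5.97% of all tested genes. MT-CYB, the cytochrome b of complex III, had a log2 fold change of 0.68 ± 0.12, and the complex IV core genes MT-CO1, MT-CO2 and MT-CO3 had 0.26 ± 0.09, 0.46 ± 0.09 and 0.32 ± 0.09 (SE, edgeR adjusted p from 0.000377 for MT-CYB to 0.0688 for MT-CO1). MT-ATP6 of complex V had 0.30 ± 0.11 (adjusted p = 0.106). With the length trend removed, the call of MT-CO1 was lost (edgeR adjusted p = 0.591) and MT-ATP6 was called (0.0312), and on library totals alone all 5 were called (0.0414 for MT-ATP6).

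The part of each complex's counts that came from the mitochondrial genome was larger in siDelta2-4. It was 4.04% ± 0.376 in siControl and 6.75% ± 0.385 in siDelta2-4 for complex III, 20.2% ± 1.20 and 26.6% ± 1.01 for complex IV, and 2.04% ± 0.0831 and 2.59% ± 0.275 for complex V (SD over n = 3 libraries each). The groups did not overlap for any of these complexes. These shares are descriptions with no test.

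Genes listed as assembly factors, which help to build the complexes, gave 2 calls. FMC1, which acts in the assembly of the ATP synthase head, measured 37.0, 50.8 and 31.6 CPM in siControl and 79.6, 89.4 and 91.3 CPM in siDelta2-4 (log2 fold change 1.12 ± 0.18, edgeR adjusted p = 0.000161), and 1 of 3 tested factors of complex V was called. UQCC5, a factor for cytochrome b, measured 27.3, 23.0 and 17.2 CPM in siControl and 51.5, 34.9 and 44.5 CPM in siDelta2-4 (log2 fold change 0.94 ± 0.23, edgeR adjusted p = 0.00965), and 1 of 5 tested factors of complex III was called. Neither gene overlapped between the groups, which held in this direction for 14.1% of all tested genes. Of all tested genes, 7.00% were called higher, so 1 call in a list this short is no result about the list. No listed factor of complex II (2 tested) or complex IV (19 tested) was called, nor was any of 2 tested partners of cytochrome c. SDHAF3 of complex II was called higher on library totals alone (edgeR adjusted p = 0.0613, with 13.2% of all tested genes called). COX14 of complex IV was called higher with the length trend removed (0.0650, with 12.1% called). The list for complex IV includes NDUFA4, which is a subunit of that complex (log2 fold change 0.06 ± 0.09). None of the 5 regulators of respiratory genes found in the table passed the filter.

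Nuclear subunits of complex I, the other proton pump of the chain, had 1 call higher and 4 lower among 36 tested, with a median log2 fold change of -0.17 (-0.10 on library totals alone), against -0.04 (0.02) for the members. These were NDUFB5 higher and NDUFAB1, NDUFB7, NDUFS7 and NDUFB11 lower, against 7.00% of all tested genes called higher and 5.97% lower. NDUFB7 lost its call on library totals alone (edgeR adjusted p = 0.163) and with the length trend removed (0.184), and NDUFB11 on library totals alone (0.115).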

How the data were processed

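Long-read PCR-cDNA libraries of polyadenylated RNA were analysed, 3 per group, grouped by the siRNA in the sample labels and in the count columns. The authors deposited raw counts of reads per transcript model, made with minimap2 2.14 and SAMtools 1.13 (per the submitters' processing notes) on GRCh38.p14 and, per the study's methods, TranscriptClean and TALON with Gencode 44, with unannotated models kept at 5 or more reads in 3 samples. In the deposited table no model lacked counts in siDelta2-4, while 4526 models, 25 of them of members, had none in siControl. The members' models of this kind held 34 counts.

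Counts were summed per gene identifier and tested over the whole table in R 4.3.3 with edgeR 4.0.16 (filterByExpr, TMM, quasi-likelihood fit of the 2 groups without covariates, two-sided, Benjamini-Hochberg over all genes tested, adjusted p under 0.1). The SE of a log2 fold change was derived from the quasi-likelihood F. Transcript models were tested likewise and usage with diffSpliceDGE. Model length per gene was the count-weighted mean over its models. Libraries held 1037468 to 1309241 counts, so genes of few counts had wide errors. Gene coordinates came from Gencode 44 and promoters from RefSeq.

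As alternatives the Wald test of DESeq2 1.42.0, its size factors in edgeR, library totals without TMM, no filter, at least 10 counts in every library, a loess trend on length removed (span 0.4), known models alone, annotated genes alone, a block on the column number, an adjusted p under 0.05 and each library left out were run. Samples with the same column number did not deviate together, so the numbers were not used as pairs. The members, gene lists and tests were chosen with earlier results of these data known. Values are given in full for called members, CYCS, and in each complex the most counted member and the member of largest change. ATP5F1C was named in full after its values were seen, as were the assembly factors, retrocopies and neighbours. The scripts were tested on simulated data.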

Additional observations from a re-analysis of the deposited data

How the results depend on the processing

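CYCS and ATP5MC1 were called in all 15 alternatives run for them, COX6A1 in 14, ATP5PB in 13, and UQCR11 and ATP5F1E in 8. These 15 kept the threshold of 0.1. At an adjusted p under 0.05, UQCR11 (edgeR adjusted p = 0.0726) and ATP5F1E (0.0681) were not called. Over all genes, 504 were called, against 254 with the DESeq2 Wald test, 252 on known models alone, 299 with the replicate block, 304 at an adjusted p under 0.05 and 194 to 1041 with a library left out. The 2 members called higher became 4 on library totals alone and 1 to 3 with a library left out. The 4 called lower became 2 on library totals alone, 7 with the length trend removed, 2 with the replicate block, 2 at an adjusted p under 0.05 and 1 to 11 with a library left out. The members' median log2 fold change, -0.04, ran from -0.133 to -0.016 with a library left out, and the called transcript models, 5, from 3 to 14.

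The block on the column number had no support in the labels or the data (correlations of deviations 0.039, -0.14 and -0.084), and beside the counts above it removed the calls of UQCR11 and ATP5F1E. For the usage test, the block and the leave-outs were chosen after seeing the data, and each gave 0 called members.

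Signs changed for genes near 0 that were never called. SDHD was at -0.015 with the length trend removed. UQCRB was at -0.014 with the DESeq2 Wald test and with DESeq2 size factors, -0.0025 with no filter, -0.11 with the length trend removed, -0.019 on known models, -0.0011 on annotated genes and -0.036 to 0.050 with a library left out. COX8A was at 0.026 on library totals alone and 0.072 with the length trend removed, and ATP5MC2 at 0.0045 on library totals alone.

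On TMM-scaled totals, the share differences (siDelta2-4 minus siControl, in percentage points) moved to -0.0253 for complex III, -0.0653 for complex IV and -0.0320 for complex V, whose sign turned. With a library left out, the difference for complex V (0.00505 with all libraries) ran from -0.0113, without siControl library 3, to 0.0212, and that for complex III (-0.00848) from -0.0157 to 0.00236, without siControl library 1. As a share of annotated gene counts the difference for cytochrome c was 0.0233. The causes were not tested. SDHA, CYC1, UQCRFS1, ATP5F1D and ATP5MGL were too rarely counted to test.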
